A study of Arabidopsis thaliana with 12 samples.

Results

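CCS (AT1G12520), NTRC (AT2G41680) and CHL (AT3G47860) are nuclear genes of Arabidopsis thaliana whose products handle reactive oxygen or guard the chloroplast against it. Each was measured by 1 array probe paired with exactly 1 gene, so the 3 genes rest on 3 of 692 such probes and of 3439 probes in all. They were chosen by their measured difference between proline and water in these same samples, as redox genes whose probes had passed the test there, so their differences are given here as a description, with no test. No probe listed with several genes named any of them (0 probes), so each level has no second probe to set beside it.

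Transcripts were measured on an expression array in total RNA of wild-type Wassilevskija plants. For 6 samples, plants were given 100 mM proline for 6 h, which was meant to bring cellular proline to toxic levels, and for the other 6 samples they were given water. The labels name no organ, plant age or duration of the water treatment, and do not state if different plants stand behind the samples. The spread between samples may therefore be technical, and proline and treatment time cannot be told apart. No genotype other than the wild type was used, and none of the 11 leaf and root marker genes listed for a check of the tissue had a probe of its own. In such bulk RNA, fewer cells of a type and less RNA per cell cannot be told apart.

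CCS is the copper chaperone of superoxide dismutase. It loads copper into the copper/zinc superoxide dismutases, which turn superoxide into hydrogen peroxide and oxygen in the cytosol and the chloroplast. NTRC joins an NADPH-dependent thioredoxin reductase and a thioredoxin in a single chloroplast protein. It passes electrons from NADPH to the plastid peroxiredoxins that remove hydrogen peroxide, in the dark as well as in the light. CHL is the chloroplast lipocalin, a small lipid-binding protein of the thylakoid lumen that limits lipid peroxidation and takes part in sustained photoprotection.

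After quantile normalization between samples, CCS and NTRC stood higher in the proline samples and CHL stood lower, a direction that turned for CHL in the values as deposited (log2 fold change 0.08). Levels are in the units of the deposited intensities, a linear scale that ends at 100, with values under a floor of 0.0377 raised to it. CCS averaged 0.127 ± 0.0212 with proline and 0.0628 ± 0.0164 with water (SD, n = 6 each), a 2.05-fold higher level. NTRC averaged 0.205 ± 0.0312 with proline and 0.151 ± 0.0228 with water, 1.35-fold higher. CHL averaged 0.279 ± 0.0494 with proline and 0.401 ± 0.0583 with water, and its level in water was 1.44-fold that in proline. Fold changes here are ratios of geometric means, so they differ slightly from the ratio of these averages.

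CCS had a lowest, median and highest level of 0.0963, 0.128 and 0.153 in the proline samples, against 0.0394, 0.0648 and 0.0816 in the water samples. Every proline sample lay above every water sample. The log2 fold change was 1.04 (SE 0.19). The differences between proline and water samples of the same number ran from 0.62 to 1.55, and the lack of overlap makes all 6 positive. Samples 5 and 6 held the 2 lowest values of the proline group, at 0.0963 and 0.109, and sample 5 also held the lowest value of the water group, at 0.0394. The geometric mean of samples 5 and 6 was 0.103 with proline and 0.0483 with water, each below the other pair means of its group, which were 0.142 and 0.134 with proline and 0.0734 and 0.0634 with water. The pair mean of samples 5 and 6 was thus lower in both treatments, but water sample 6, at 0.0592, lay above water sample 3, at 0.0493.

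The CCS probe was dim. Its mean signal lay at the 16.0th percentile of the 3097 tested probes, which describes the strength of the spot and not the abundance of the transcript. The water samples averaged 1.66 times the floor and the proline samples 3.36 times, and none of the 12 values was at the floor. With the floor raised to the 20th percentile of the positive values, 0.108, the water samples all lay below it and the log2 fold change shrank to 0.23. The residual spread of CCS around its group means was 0.34 on the log2 scale, close to the median of 0.31 over all tested probes.

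NTRC had a lowest, median and highest level of 0.156, 0.198 and 0.241 in the proline samples, against 0.135, 0.142 and 0.194 in the water samples. The groups overlapped: 5 of the 6 proline samples lay above all water samples, and proline sample 2, at 0.156, lay below water samples 1 and 6, at 0.161 and 0.194. The log2 fold change was 0.43 (SE 0.13). Between samples of the same number the proline sample was higher in 6 of 6, by 0.22 to 0.77 on the log2 scale, and the largest of these differences was that of number 3. Water sample 6 stood apart from the other water samples, which lay at 0.135 to 0.161, and proline sample 6 was also high, at 0.238. NTRC varied less around its group means than CCS did, with a residual spread of 0.22 on the log2 scale.

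CHL had a lowest, median and highest level of 0.244, 0.255 and 0.366 in the proline samples, against 0.308, 0.412 and 0.465 in the water samples. The groups overlapped through proline samples 3 and 4, at 0.366 and 0.310, while the other 4 proline samples lay at 0.244 to 0.261, below every water sample. The log2 fold change was -0.53 (SE 0.14). The difference between same-numbered samples was negative in all 6, from -0.93 for number 6 to -0.28 for number 3. Proline samples 3 and 4 were also the samples with the highest median deposited intensity over all probes, 0.361 and 0.350, where the other proline samples had 0.213 to 0.240 and the water samples 0.171 to 0.188. Without these 2 samples the log2 fold change of CHL was -0.67, and the part of that shift of all probes in the CHL values was not tested.

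**Figure D1:**
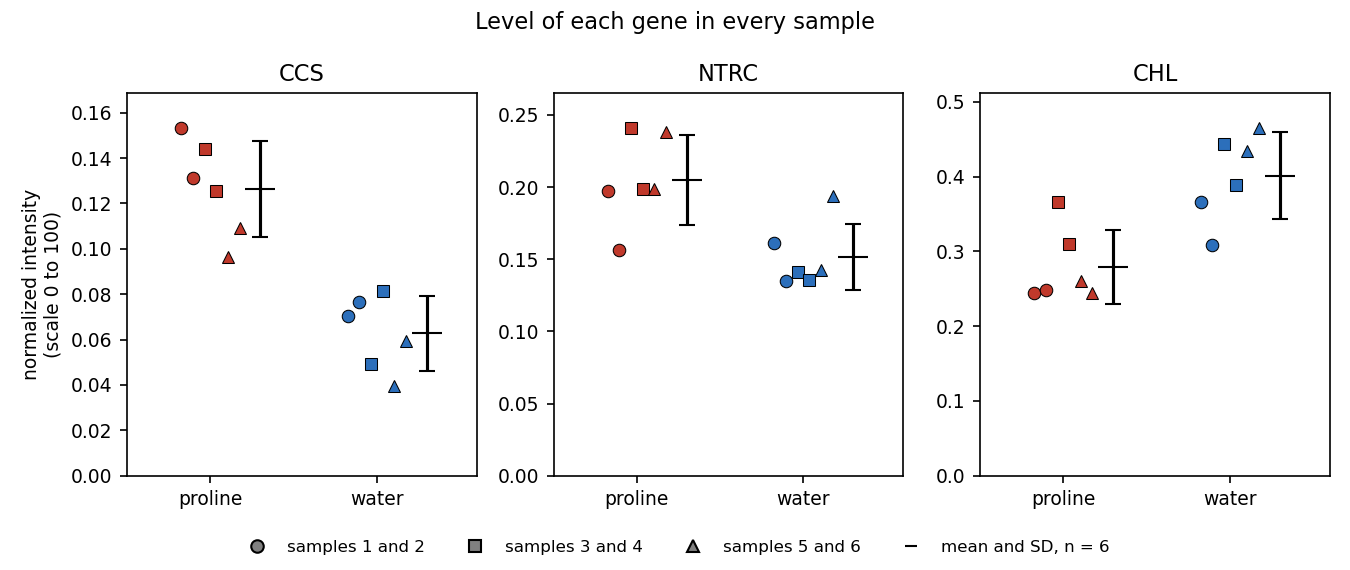
Normalized intensity (vertical axes, linear, each starting at 0) of CCS, NTRC and CHL in each proline and water sample, with marker shapes for samples 1 and 2, 3 and 4, and 5 and 6, and the mean with its SD (n = 6) beside each group. CCS separates fully, NTRC overlaps through proline sample 2, and CHL overlaps through proline samples 3 and 4.

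In the limma fit over all tested probes, 38.0% of them passed a Benjamini-Hochberg adjusted threshold of 0.05, 17.1% higher and 20.9% lower with proline. All 3 genes were among these calls, 2 higher and 1 lower, which is how they had been chosen. The groups of 22.5% of probes did not overlap, and of the 3 genes this held for CCS. In size, the change of CCS lay at the 89.0th percentile of absolute log2 fold changes over the tested probes, that of CHL at the 64.5th and that of NTRC at the 56.4th. When samples 1 and 2, 3 and 4, and 5 and 6 were averaged first, which left 17.1% of probes called, CCS remained among the calls and NTRC and CHL did not. NTRC also left the calls without proline samples 3 and 4, CHL in the values as deposited, and CCS with the floor at the 20th percentile.

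**Figure D2:**
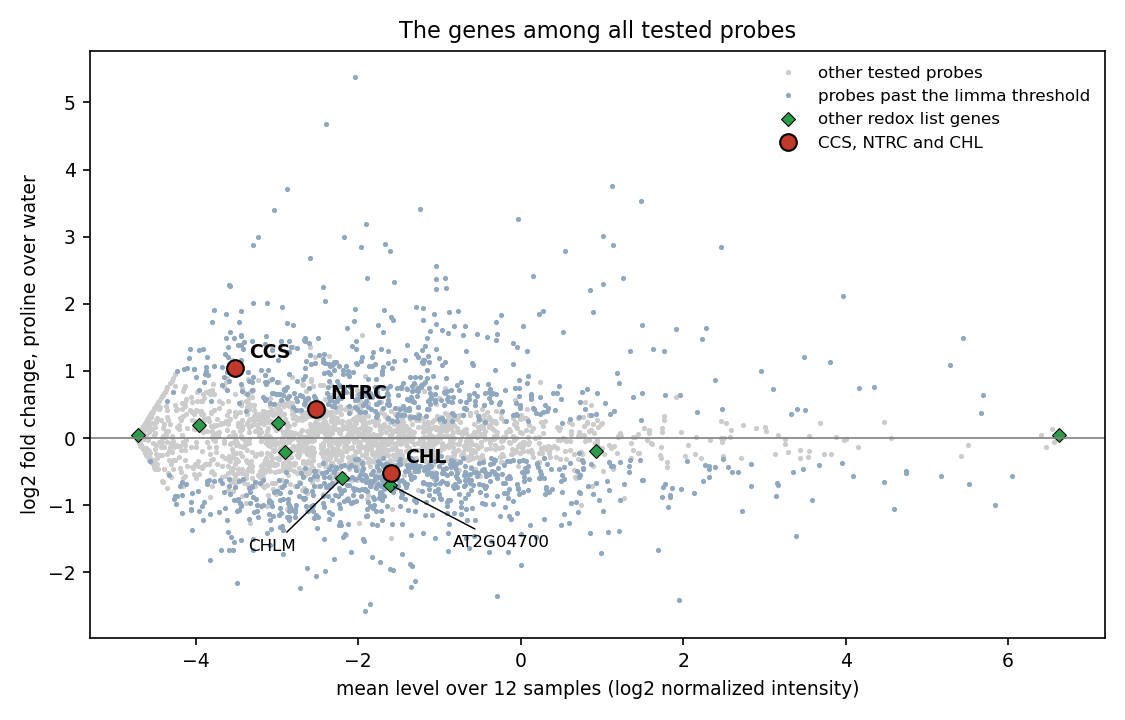
Log2 fold change of proline over water (vertical axis) against the mean log2 normalized intensity over the 12 samples (horizontal axis) for the 3097 tested probes, with those past the limma threshold in blue grey, CCS, NTRC and CHL as red circles and 8 other redox list genes as green diamonds. CCS is dim with a log2 fold change of 1.04, while NTRC at 0.43 and CHL at -0.53 (0.08 in the values as deposited) lie inside the dense band of probes.

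The directions depended on the scale to different degrees. In the values as deposited, with no normalization between samples, the median log2 fold change over all tested probes was 0.41, whereas quantile normalization left it at -0.03. CCS ran from 0.0785 to 0.239 with proline and from 0.0357 to 0.0724 with water there, again with no overlap, and its log2 fold change was 1.38. NTRC ran from 0.159 to 0.387 with proline and from 0.106 to 0.163 with water, with a log2 fold change of 0.96. CHL ran from 0.240 to 0.560 with proline and from 0.233 to 0.384 with water, and its log2 fold change was 0.08, so its direction turned. Its 2 highest proline values there were those of samples 3 and 4, at 0.560 and 0.476, and the other 4 proline samples, at 0.240 to 0.267, lay within the range of the water samples.

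Measured from the all-probe median, the genes kept their order and sign under each scaling tried. CCS stood at 1.07 above that median after quantile normalization, 0.91 after median centring, 1.05 after cyclic loess and 0.96 in the values as deposited. NTRC stood at 0.46, 0.48, 0.42 and 0.54 under the same settings. CHL stood at -0.50, -0.39, -0.55 and -0.33. Whether the CHL transcript fell, or kept its level while most other probes read higher, cannot be told apart from these values.

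**Figure D3:**
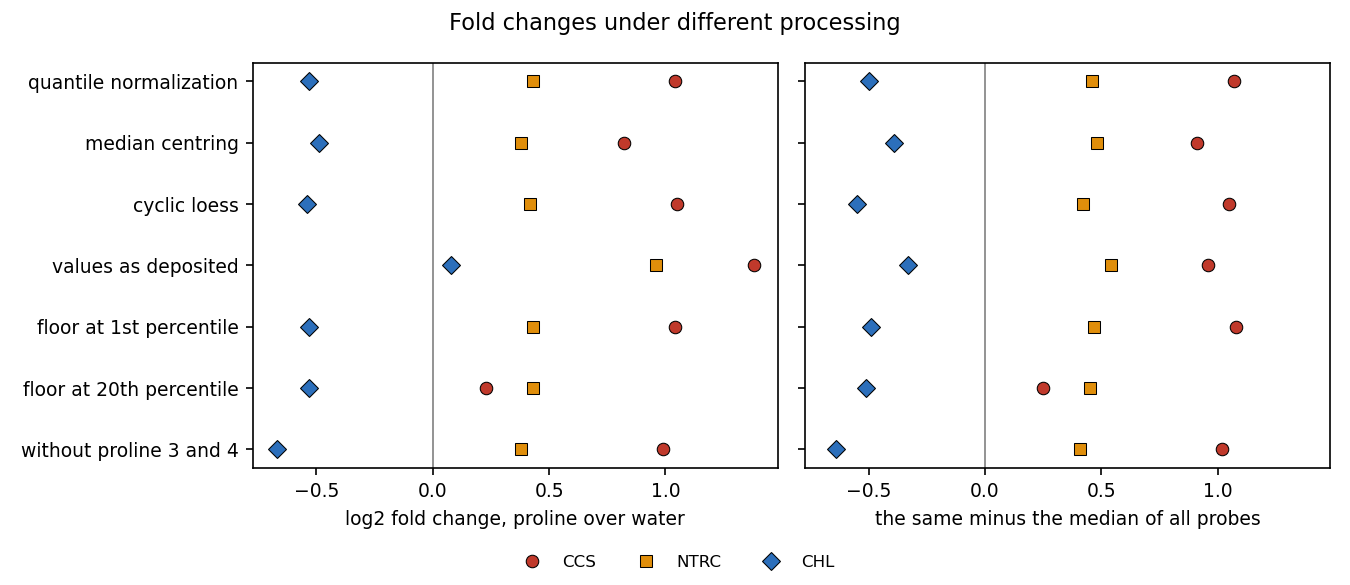
Log2 fold change of proline over water for CCS, NTRC and CHL under 7 processing settings (rows), as fitted (left) and after subtraction of the median over all tested probes (right). CHL crosses 0 only in the values as deposited on the left, at 0.08, and CCS drops to 0.23 with the floor at the 20th percentile.

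The change of one gene against another within a sample is free of any factor that multiplies all probes of that sample. It was taken as the log2 ratio of the deposited values of 2 genes, minus the mean of that ratio over the water samples, so that it shows unequal change and not the change of either gene. A shift that differs with the level of a probe does not cancel in such a ratio. In proline sample 5, quantile normalization took CCS from 0.0785 to 0.0963 but CHL only from 0.258 to 0.261. The part of such shifts in the ratios was not tested. The ratio of CCS to CHL was 1.31 ± 0.31 with proline and 0.00 ± 0.56 with water (SD, n = 6 each), a 2.47-fold higher ratio. Its values ran from 0.81 to 1.74 with proline and from -0.77 to 0.63 with water, without overlap. The ratio of NTRC to CHL was 0.87 ± 0.24 with proline and 0.00 ± 0.20 with water. It ran from 0.59 to 1.28 with proline and from -0.23 to 0.21 with water, also without overlap, and proline samples 3 and 4, at 0.79 and 0.75, lay among the other proline samples.

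The ratio of CCS to NTRC did not separate the treatments. It was 0.43 ± 0.43 with proline and 0.00 ± 0.44 with water, and ran from -0.11 to 0.90 with proline and from -0.55 to 0.56 with water. Samples 5 and 6 were lowest in each group, at -0.07 and -0.11 with proline and -0.55 and -0.33 with water. These ratios come from the comparison on which the genes were chosen and carry no test.

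**Figure D4:**
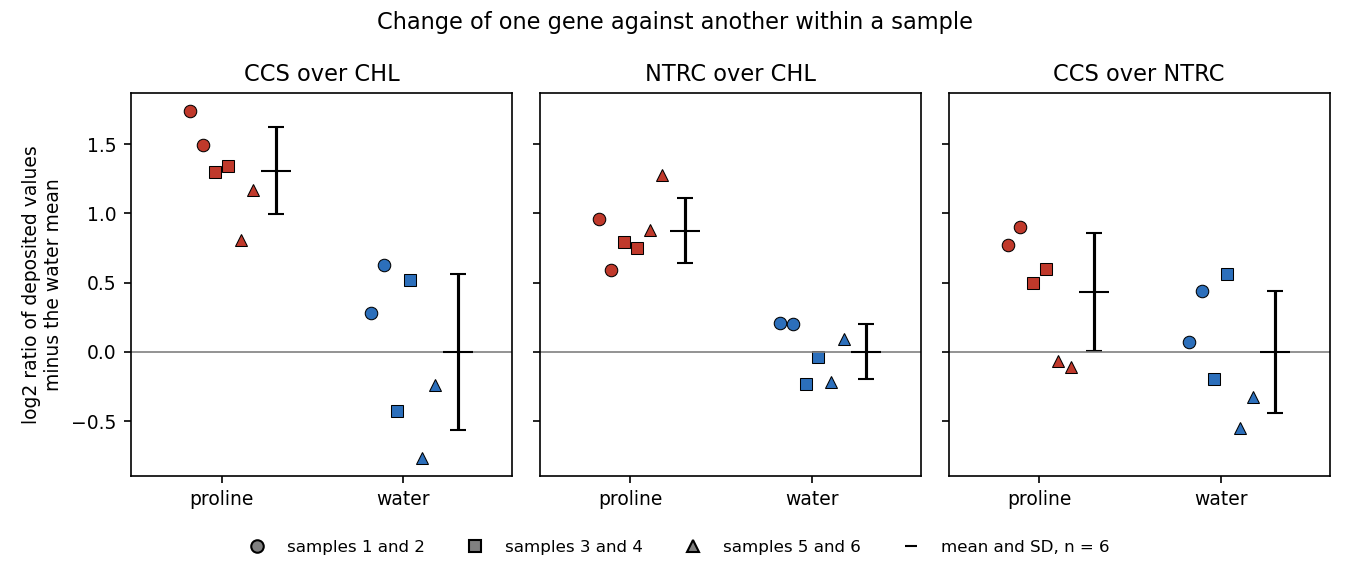
Log2 ratio of deposited values within each sample, minus its mean over the water samples (vertical axis, shared), for CCS over CHL, NTRC over CHL and CCS over NTRC, with marker shapes for samples 1 and 2, 3 and 4, and 5 and 6, and the mean with its SD (n = 6). The first and second ratios separate proline from water, and the third overlaps.

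Other genes of the same systems were taken from 7 lists of 135 genes that span superoxide dismutases and copper delivery, thioredoxins, peroxiredoxins, ascorbate and glutathione, glutaredoxins, lipocalins and thylakoid protection, and enzymes regulated through plastid thioredoxins or NTRC. Beside CCS, NTRC and CHL, 8 of these genes had a probe of their own, and all 8 passed the filter on low values. The superoxide dismutases that CCS supplies, the 2-Cys peroxiredoxins that NTRC reduces and the second lipocalin of the list, TIL, had none and are not analysed here, nor are the 6 genes of proline breakdown and synthesis. After quantile normalization, 0 of the 8 rose and 2 fell (limma adjusted p under 0.05). The counts at an unadjusted p under 0.05 were also 0 and 2. The median log2 fold change of the 8 was -0.08, against -0.03 over all tested probes, of which 17.1% rose and 20.9% fell. It counts AT4G31530 and SBPASE, which stood at an end of the scale and could show little or no difference; the median of the other 6, a choice made after their values were seen, was -0.20.

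AT2G04700, on the thioredoxin list, had a lowest, median and highest level of 0.190, 0.257 and 0.320 in the proline samples, against 0.366, 0.422 and 0.449 in the water samples. The groups did not overlap, which makes the gene lower in all 6 same-numbered comparisons. It fell by 0.69 on the log2 scale (SE 0.13, limma adjusted p = 0.00097). CHLM, the methyltransferase of magnesium protoporphyrin in chlorophyll synthesis, averaged 0.177 ± 0.0171 with proline and 0.272 ± 0.0553 with water (SD, n = 6 each). It fell by 0.60 on the log2 scale (SE 0.13, limma adjusted p = 0.0036), and of the proline samples only sample 6, at 0.205, reached above the lowest water sample, at 0.202. Neither passed in the values as deposited, where their log2 fold changes were -0.05 and -0.02 (limma adjusted p = 0.77 and 0.95). Measured from the all-probe median, they stood at -0.46 and -0.43 there. After quantile normalization these distances were -0.66 and -0.57. Whether the 2 transcripts fell, or kept their level while most other probes read higher, cannot be told apart from these values. When the same neighbouring samples were averaged first, AT2G04700 passed (limma adjusted p = 0.046) and CHLM did not (limma adjusted p = 0.061).

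The other 6 did not pass. AT3G52960, on the peroxiredoxin list, differed by 0.23 on the log2 scale (SE 0.18, limma adjusted p = 0.34), and in the values as deposited it passed as higher (0.67, limma adjusted p = 0.031), 0.26 above the all-probe median. SRX, the sulfiredoxin that repairs overoxidized 2-Cys peroxiredoxins, was uneven. It stood at 0.161 and 0.170 in proline samples 3 and 4, against 0.0377 to 0.0595 in the other proline samples and 0.0377 to 0.103 in the water samples, with 2 samples of each group at the floor. Its difference of 0.19 on the log2 scale (SE 0.44, limma adjusted p = 0.78) turned to -0.45 without proline samples 3 and 4. GLDH, the enzyme of the last step of ascorbate synthesis, differed by -0.21 on the log2 scale (SE 0.26, limma adjusted p = 0.56). Its value was -0.52 without proline samples 3 and 4 (limma adjusted p = 0.099), and from -0.36 without proline sample 4 to -0.03 without proline sample 1 when a single sample was left out.

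Of the Calvin cycle enzymes that thioredoxins switch on in the light, PRK differed by -0.19 on the log2 scale (SE 0.14, limma adjusted p = 0.31). SBPASE was at the floor in 5 of 6 proline samples and 6 of 6 water samples, and no fold is given. AT4G31530, on the list of lipocalins and thylakoid protection, was at 100 in all 12 samples as deposited, the top of the scale. Its probe could not show a difference, and any value for it after normalization reflects the scaling of the sample.

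The genes whose values over the 12 samples were most like those of each gene were found among the 620 tested probes with 1 gene. The measure was the root mean square difference of log2 levels after each gene's own mean was removed, which is smaller for more similar genes and includes the difference between treatments. For CCS the closest were AT2G46300 (0.230), AT3G04650 (0.267) and AT2G41950 (0.273), where the median over the probes with 1 gene was 0.732. AT2G46300 averaged 1.34 ± 0.165 with proline and 0.738 ± 0.0799 with water, 1.82-fold higher, AT3G04650 was 2.16-fold higher and AT2G41950 was 1.84-fold higher. Like CCS, these genes were lower in samples 5 and 6 than in samples 3 and 4 of the proline group. CCS dipped to 0.0493 in water sample 3, and AT2G46300, AT3G04650 and AT2G41950, at 0.770, 0.502 and 0.238 there, lay inside the range of their other water samples.

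For NTRC the closest were AT2G29870 (0.171), AT3G04500 (0.181) and AT4G31060 (0.186), against a median of 0.520. They were 1.36-, 1.47- and 1.47-fold higher with proline. For CHL the closest were NdhS (0.170), a subunit of the chloroplast NADH dehydrogenase-like complex, AT4G24840 (0.179) and AT2G19280 (0.185), against a median of 0.517. NdhS averaged 5.17 ± 0.955 with proline and 6.22 ± 0.862 with water, and like CHL it had its highest proline values in samples 3 and 4, at 6.52 and 6.13. Its log2 fold change was -0.27, AT4G24840 had -0.61 and AT2G19280 had -0.55. These values moved with the scaling. NdhS had -0.02 under cyclic loess and -0.64 under median centring. In the values as deposited, NdhS had -0.06, AT4G24840 had -0.04 and AT2G19280 had -0.29. These 9 genes were picked for their likeness over the same samples, so their differences are descriptions and carry no test.

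**Figure D5:**
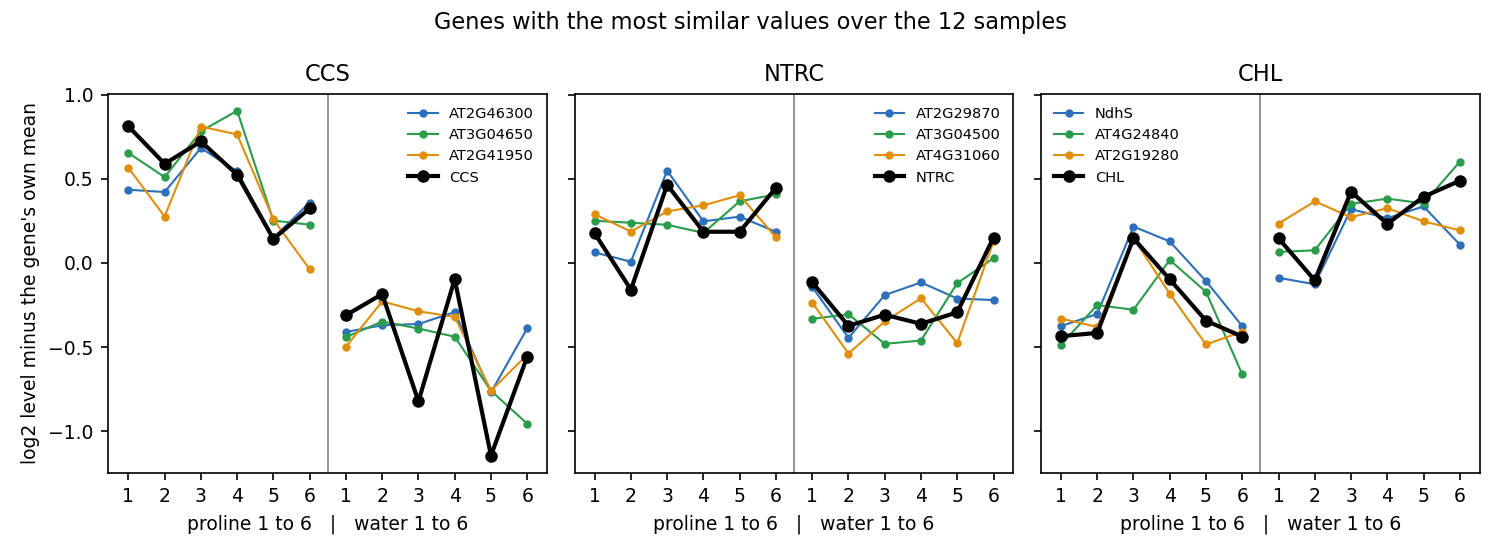
Log2 normalized intensity minus each gene's own mean over the 12 samples (vertical axis) in proline samples 1 to 6 and water samples 1 to 6, for CCS, NTRC and CHL (black) and the 3 genes closest to each (colours). Lines join samples of a group to help follow a gene and show no order. CCS dips in water sample 3, where its closest genes lie inside the range of their other water samples. In water sample 5 CCS lies lower than its closest genes.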

How the data were processed

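The 12 samples, 6 with proline and 6 with water, were grouped and numbered from their titles. The authors deposited intensities, which the values show to be linear and to span 0 to 100. For the array type, background correction and scaling, the step taken by the authors is not given in the sources used here. Between 432 and 529 probes of a sample stood at 0. Precision is limited by the number of arrays.

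Probes were named through GEO's platform annotation, which can be old (692 probes with 1 gene, 870 with several, 1877 unnamed here), and 690 were matched by gene number to names of assembly TAIR10.1. No coordinate of it was used, since the build of the authors is not named.

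Values were quantile-normalized, raised to a floor at the 5th percentile of the positive deposited values, and put on the log2 scale. After removal of 342 probes that never rose above the floor, 3097 were fitted in limma 3.58.1 (R 4.3.3; lmFit, eBayes, two-sided, Benjamini-Hochberg over all), without a replicate block. The fit was tested on simulated data with independent samples, which leaves out the likeness between samples described below. The genes, lists and alternatives were chosen with earlier results of these data known. The genes named were CCS, NTRC and CHL, every tested gene of the lists (none had over 5) and the 3 closest genes of each.

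Replicate numbers occur in both groups. Over the tested probes, same-numbered samples deviated together from their group means (correlations 0.46, 0.47, 0.29, 0.30, 0.20 and 0.16, all over 0.1). The numbers were used as pairs for the same-number differences and in the replicate block, run as an alternative. The main fit, which gave the SEs, p-values and calls, did not pair samples. Neighbouring samples of a group (1 and 2, 3 and 4, 5 and 6) were alike too. Their median absolute log2 differences were 0.149 to 0.178, against 0.227 to 0.398 for other samples, so p-values with n = 6 may be too small. Correlations between proline and water samples of different numbers were not computed. Sharing by number and sharing by neighbouring pair can therefore not be told apart. Alternatives were other scalings and floors, a filter on dim probes, the replicate block, means of those pairs and leaving out samples.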

Additional observations from a re-analysis of the deposited data

Results flagged for a closer look

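Among 40 groups of 6 values, 3 held a sample at a large gap to all others. By chance about 1 in 20 groups would. None of the 3 was in CCS, NTRC or CHL. SBPASE was at 0.0456 in proline sample 6 and at the floor of 0.0377 in the other 5 proline samples, where the ties fix the outcome. AT2G46300 was at 0.581 in water sample 5, against 0.745 to 0.808 in the other water samples, and CCS was also lowest there. AT2G29870 was at 0.453 in water sample 2, against 0.530 to 0.570 in the other water samples.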

How the results depend on the processing

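CCS and NTRC stayed higher with proline under each of the 20 and 21 alternatives run, and CHL stayed lower under 20 of 21. In the values as deposited the log2 fold changes were 1.38 for CCS, 0.96 for NTRC and 0.08 for CHL, and with the floor at the 20th percentile CCS was at 0.23. Leaving out each sample in turn gave 0.91 to 1.12 for CCS, 0.38 to 0.51 for NTRC and -0.61 to -0.48 for CHL. Each was still called in 12 of 12, but the genes had been chosen as called. The like neighbour of the sample left out also stayed in, so these calls are no added support. With the means of pairs NTRC and CHL were not called. CCS was among the dimmest 25% of probes, so that filter gave no value for it. The 1176 calls became 530 with the means of pairs and 1082 to 1149 with a sample left out. The calls split into 529 higher and 647 lower after quantile normalization, 586 and 573 after cyclic loess, and 1191 and 178 without normalization. Under the replicate block 1282 probes were called, and CCS, NTRC, CHL and the 2 fallen list genes stayed called, so the block changed none of these calls. Of the 8 other list genes, 2 changed, against 1 (higher) in the values as deposited, 1 with the means of pairs, 3 under median centring and 3 under cyclic loess. The third call in these scalings was AT4G31530, at 100 in all samples as deposited, lower under median centring and higher (0.44) under cyclic loess, so it comes from the scaling. Without that gene and SBPASE, left out after the data were seen, 2 of 6 changed. Directions turned for GLDH (0.17) and PRK (0.01) in the values as deposited and for AT4G31530 under median centring (-0.57). SRX turned under median centring (-0.04), with the floor at the 1st percentile (-0.51), without proline samples 3 and 4 (-0.45), and without proline sample 3 or 4 (-0.06 and -0.07), within a range of -0.07 to 0.36 when each sample was left out; no cause was tested. The dim signal of CCS and SRX near the floor limits what their fold changes show.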
